A study of Mus musculus with 6 samples.

Results

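Matrix metalloproteinases and their tissue inhibitors, the TIMPs, were examined in 21 probe sets for 10 genes (Mmp2, Mmp3, Mmp9, Mmp10, Mmp11, Mmp13, Mmp14, Timp1, Timp2 and Timp3), out of 22626 probe sets and 12393 genes measured. A probe set belonged to the family where the platform annotation named a single one of these genes for it. The family was chosen on the measured falls of Mmp3 and Mmp13 between the same arrays, so the differences of all its members are given as a description and carry no test.

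The study profiled total RNA of cultured mouse cells of a line called PPP3R1 on 6 Affymetrix arrays. The starved group has 3 arrays, from cells kept 6 h in starvation conditions, and the control group has 3, from cells in normal medium. The titles and the series design make both groups the PPP3R1 line, while the growth and treatment protocols call the controls wild-type mouse embryonic fibroblasts (MEFs), and this conflict touches every difference below. PPP3R1 is also the symbol of a regulatory subunit of the phosphatase calcineurin. It is not given in the labels whether or how that gene was altered, how many clones the line holds or what the starvation medium lacked. The titles call the arrays of each group biological replicates 1, 2 and 3, without saying whether these were separate cultures. Spread and p-values therefore measure these samples only, at the precision that so few arrays allow. No batch or scan date is given in the sources used here, so batch and group cannot be told apart.

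Matrix metalloproteinases are zinc proteases that cut collagens and other proteins of the extracellular matrix. Most are secreted as inactive precursors with a propeptide that blocks the zinc, and they become active when it is cut off. TIMPs bind the active site and inhibit the enzymes, and Timp2 has a further role as the bridge through which membrane-anchored Mmp14 activates the precursor of Mmp2. Fibroblasts are a main source of these enzymes, and transcription of Mmp3, Mmp10 and Mmp13 is known to be induced by growth factors and inflammatory cytokines through AP-1, the dimers of Fos and Jun proteins.

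Starved cells had far less Mmp3 and Mmp13 mRNA than control cells, moderately less Mmp2 and Mmp14 mRNA (75.1% and 74.4% of control), and more Timp1 and, in most of its probe sets, more Timp3 mRNA. Mmp9 and Mmp10 lay near background in both groups, and Timp2 was not called in any probe set. In bulk RNA fewer cells of a type and less RNA per cell cannot be told apart. In limma's fit across all probe sets, 11 of the 21 member probe sets were called (adjusted p of 0.05 or less), 6 lower and 5 higher in starved cells. Of all probe sets, 39.5% were called, 19.2% lower and 20.3% higher. Because the family was picked on this comparison, nothing is read from the members' counts or medians, or from whether their groups overlapped. The share of all probe sets whose groups did not overlap is not given here. The 6 lower calls were all metalloproteinase probe sets, out of 10, and 4 of the 5 higher calls were TIMP probe sets, out of 11. Of those 4, 3 were probe sets of Timp3 alone. By the brightest probe set, 4 of 7 metalloproteinase genes were lower and 1 higher. Of 3 TIMP genes, 1 was higher and 2 were not called. Of all genes, 20.1% were called lower and 20.8% higher. The median difference over the genes was -0.41 for the 7 metalloproteinases and 0.14 for the 3 TIMPs, against -0.01 over all genes. Both the metalloproteinase count and median include Mmp3 and Mmp13, on which the family was picked. Each difference is a log2 value, the starved mean less the control mean, with limma's standard error (SE), and n = 3 per group throughout.

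The sequences before the start sites of Mmp3, Mmp13 and Mmp10 are shown because these genes lie in the same gene cluster and share an AP-1 motif. That of Timp1 is shown because it is the inhibitor with the largest rise. Each line gives the 250 bases before the annotated start in RefSeq (GRCm38.p6), read 5′ to 3′ on the plus strand. The regions are chr9:7445572-7445821 for Mmp3, chr9:7272264-7272513 for Mmp13, chr9:7502092-7502341 for Mmp10 and chrX:20869916-20870165 for Timp1. Capitals mark matches to the AP-1 motif TGANTCA.
Mmp3: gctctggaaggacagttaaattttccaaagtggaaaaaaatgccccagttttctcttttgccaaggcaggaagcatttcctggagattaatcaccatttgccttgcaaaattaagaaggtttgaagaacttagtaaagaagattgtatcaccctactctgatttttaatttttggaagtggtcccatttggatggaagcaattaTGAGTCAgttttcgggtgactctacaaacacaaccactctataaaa
Mmp13: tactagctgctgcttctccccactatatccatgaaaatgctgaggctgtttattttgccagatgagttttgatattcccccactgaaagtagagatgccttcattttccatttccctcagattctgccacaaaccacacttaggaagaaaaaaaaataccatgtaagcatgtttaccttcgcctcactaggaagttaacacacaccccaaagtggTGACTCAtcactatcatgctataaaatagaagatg
Mmp10: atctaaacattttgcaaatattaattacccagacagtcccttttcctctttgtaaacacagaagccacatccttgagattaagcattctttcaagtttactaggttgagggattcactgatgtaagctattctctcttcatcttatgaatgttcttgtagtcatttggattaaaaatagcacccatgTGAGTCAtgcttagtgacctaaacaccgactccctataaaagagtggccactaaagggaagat
Timp1: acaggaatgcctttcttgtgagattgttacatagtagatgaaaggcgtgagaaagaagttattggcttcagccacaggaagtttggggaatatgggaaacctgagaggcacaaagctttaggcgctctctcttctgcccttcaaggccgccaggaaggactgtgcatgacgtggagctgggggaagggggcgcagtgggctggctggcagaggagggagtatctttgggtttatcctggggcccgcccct

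The AP-1 motif matched once in each of Mmp3 (positions -46 to -40 from the start site), Mmp13 (-35 to -29) and Mmp10 (-63 to -57). It matched in none of the other 5 members with a sequence, Mmp11, Mmp14, Timp1, Timp2 and Timp3. These include a gene lower in starved cells (Mmp14) as well as genes higher in them (Mmp11 and Timp1). Of 32851 RefSeq windows of the same length, 6.75% held it. The same 3 genes, and no other of the 8, held the TATA box letters TATAAA, found in 12.4% of all windows. These letters lay at -7 to -2 in Mmp3, -16 to -11 in Mmp13 and -29 to -24 in Mmp10. All positions are counted from the annotated start, which may differ from the start used in these cells. The letters AGGAAG, a core bound by ETS factors of the PEA3 group, were in 5 of the 8 (Mmp3, Mmp13, Mmp14, Timp1 and Timp3), against 29.5% of all windows. All motifs were searched on both strands, and no match overlapped a match of another motif. A match describes the letters in this window and does not show a bound site. A window without a match can still hold variant sites that these letters miss.

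Mmp3 encodes a stromelysin, a protease that cuts proteoglycans and other matrix proteins and can activate further metalloproteinases. Its log2 levels were 8.21, 8.03 and 8.08 in starved cells, against 11.59, 11.58 and 11.56 in control cells. The highest starved array lay more than 3 log2 units under the lowest control array, and the control arrays lay within 0.03 of each other. The mean was 8.11 ± 0.09 (SD) in starved cells and 11.58 ± 0.02 (SD) in control cells, a difference of -3.47 ± 0.06 (SE), or 11.1-fold. Only 3 of 12393 genes had a larger fall.

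Mmp13 encodes the main interstitial collagenase of rodents, which cuts fibrillar collagen. Its levels were 8.45, 8.19 and 8.32 in starved cells, against 10.91, 10.97 and 10.82 in control cells, with no overlap. The difference was -2.58 ± 0.08 (5.98-fold), the 9th largest fall of all genes. Mmp3 and Mmp13 each rest on 1 probe set, and in both the starved level stayed well above 5, the level taken as the limit for dim probe sets. Without any of the 6 arrays in turn, and under every other setting tried, Mmp3 kept a difference of -3.52 to -3.43 and Mmp13 of -2.64 to -2.52.

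Mmp10, the other stromelysin gene near Mmp3, was at 4.43, 4.34 and 4.48 in starved cells and at 5.04, 4.66 and 4.54 in control cells. The groups did not overlap, but both means lay under 5, and the spread of the control arrays (0.50) was larger than the difference of -0.33 ± 0.12. It was not called with all arrays. It was called without control replicate 3, with a difference of -0.44, and with an intensity trend and robust moderation of the variances.

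**Figure D1:**
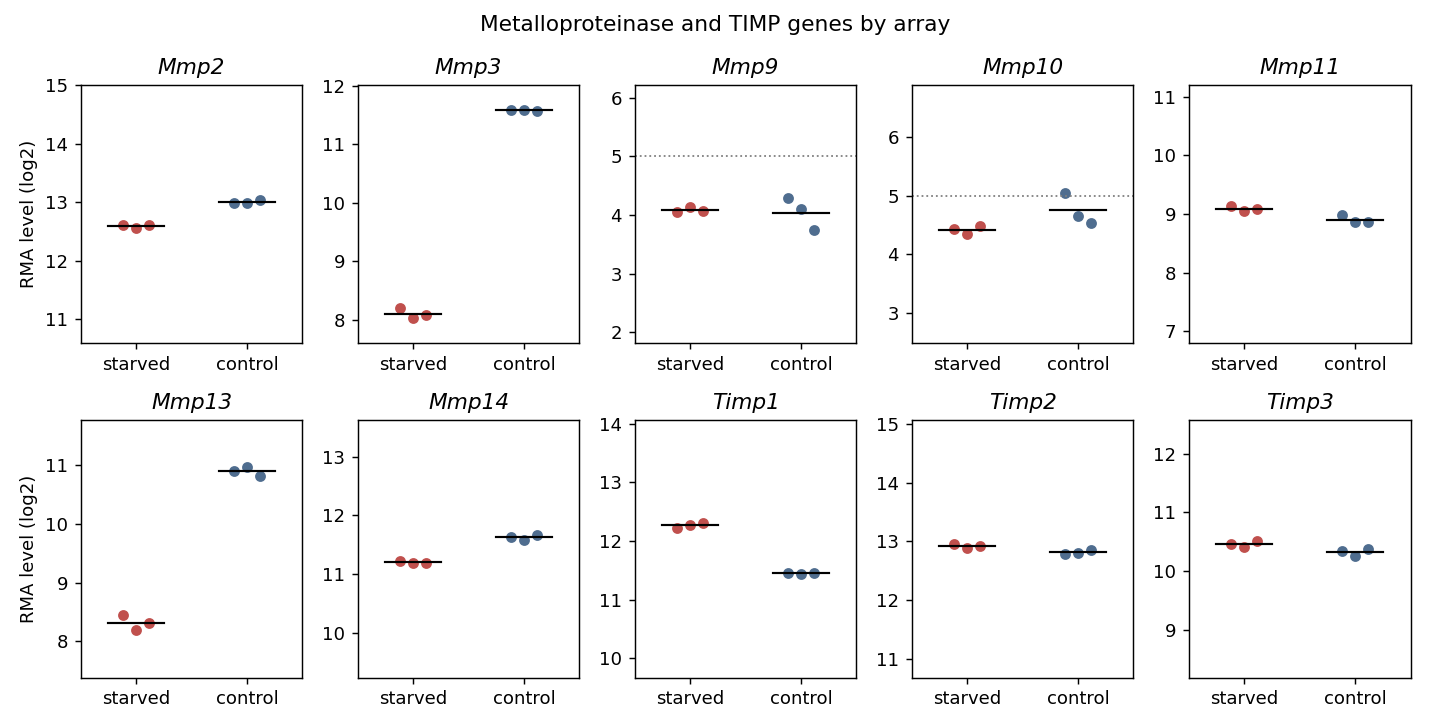
RMA level (log2) of each gene in its brightest probe set on the 3 starved and 3 control arrays; points are arrays, lines are group means, all panels span the same number of log2 units, and the dotted line marks the level of 5 used as the limit for dim probe sets. Mmp3 (8.11 against 11.58) and Mmp13 (8.32 against 10.90) show the widest gaps between group means, and Timp1 (12.27 against 11.45) shows the widest gap upward in starved cells.

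Mmp2, a gelatinase that cuts denatured and basement membrane collagen, was measured by a pair of probe sets. The brighter was at 12.61, 12.56 and 12.61 in starved cells, against 12.99, 12.98 and 13.04 in control cells, a difference of -0.41 ± 0.05. The other gave -0.41 ± 0.06, with starved levels of 12.47 to 12.54 and control levels of 12.84 to 12.99. In both probe sets every starved array was under every control array, and the starved level was 75.1% and 75.3% of control.

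Mmp14, the membrane-anchored protease that activates the Mmp2 precursor, also had a pair of probe sets. The brighter was at 11.22, 11.19 and 11.19 in starved cells, against 11.63, 11.58 and 11.67 in control cells, a difference of -0.43 ± 0.05. The dimmer was at 9.64 to 9.72 in starved cells and 10.13 to 10.29 in control cells, a difference of -0.56 ± 0.07. The groups did not overlap in either. Starved levels were thus 74.4% and 67.7% of control, close in size to those of Mmp2.

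Mmp11, which unlike most secreted members is activated inside the cell by furin-type convertases, was at 9.14, 9.05 and 9.08 in starved cells and at 8.99, 8.86 and 8.86 in control cells. The difference of 0.19 ± 0.06 was small, although the groups did not overlap, and it was the single gene called higher among the 7 metalloproteinases of the family examined. That call did not hold in 10 of 14 alternative settings, among them leaving out either control replicate 2 or control replicate 3 or any single starved array, and its difference ranged from 0.15 to 0.23 over them.

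Mmp9, the gelatinase typical of neutrophils and macrophages, stayed near background. Its brighter probe set was at 4.05, 4.13 and 4.07 in starved cells and at 4.29, 4.10 and 3.75 in control cells, and the other at 3.85 to 4.05 in starved and 3.84 to 4.07 in control cells. The groups overlapped in both, and the differences were 0.04 ± 0.12 and -0.01 ± 0.08. Levels this low leave little room to see a fall. Of 13 measured macrophage and neutrophil markers, 8 had both group means under 5, among them Ptprc (3.03 in starved and 3.07 in control cells), which encodes the common leukocyte antigen. In that list 2 markers were called higher, Cd68 (6.68 in starved and 6.25 in control cells) and Lyz2 (6.31 in starved and 6.07 in control cells), and 1 lower, Cd14 (8.02 in starved and 8.34 in control cells). Of all genes, 20.8% were called higher and 20.1% lower. The mean level of the list was 4.77 to 4.82 in starved and 4.73 to 4.82 in control arrays.

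Timp1, an inhibitor of most secreted metalloproteinases, had the largest rise of the family. Its levels were 12.23, 12.28 and 12.31 in starved cells, against 11.45, 11.43 and 11.46 in control cells. The gap between the groups was larger than the spread within either, and the difference was 0.83 ± 0.05, or 1.77-fold. Its rank among the rises of all genes was 348. The difference ranged from 0.81 to 0.85 over the alternative settings.

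Timp3, which binds to the matrix and also inhibits ADAM proteases, rose in 3 of its 4 probe sets. The differences were 0.52 ± 0.05, 0.33 ± 0.06 and 0.24 ± 0.05 in those called, and 0.14 ± 0.06 in the brightest, which was not called. The probe set with the largest rise was at 9.26, 9.30 and 9.27 in starved cells, against 8.73, 8.81 and 8.72 in control cells. The brightest was at 10.46, 10.40 and 10.51 in starved cells, against 10.34, 10.25 and 10.38 in control cells. In all 4 the starved arrays lay above the control arrays, a description from which nothing is read. The size of the difference depended on the probe set, and the mean of the 4 gave 0.31.

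Timp2 was called in none of its 6 probe sets. The brightest was at 12.96, 12.89 and 12.92 in starved cells and at 12.79, 12.80 and 12.86 in control cells, a difference of 0.11 ± 0.05. In the other 5 the groups overlapped, and differences ran from -0.06 to 0.06. Thus of the trio that acts in Mmp2 activation, Mmp2 and Mmp14 were lower in every probe set, while Timp2 was called in none. Whether the change of Timp2 differs from that of the other 2 was not tested.

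**Figure D2:**
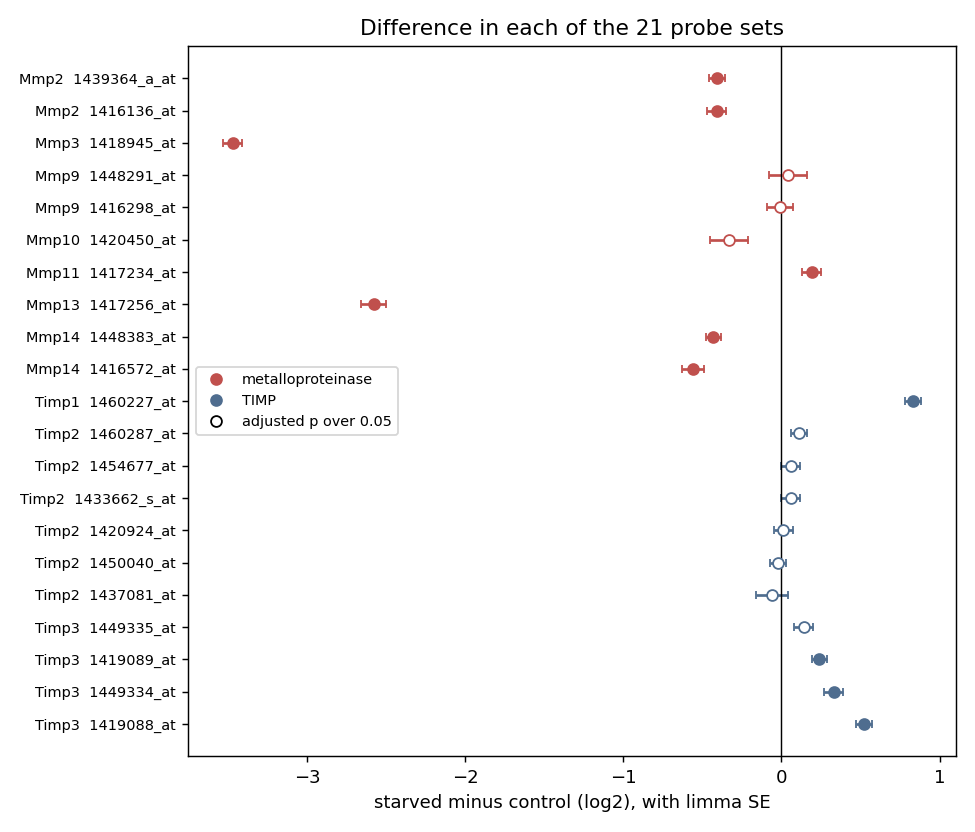
Difference between starved and control cells (log2, horizontal axis) in each of the 21 probe sets, with limma's standard error as the bar; filled points had an adjusted p of 0.05 or less. Mmp3 (-3.47) and Mmp13 (-2.58) stand far to the left of the other members, which lie between -0.56 and 0.83, and probe sets of the same gene lie close together for Mmp2 and Timp2 and spread from 0.14 to 0.52 for Timp3.

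Mmp3, Mmp13 and Mmp10 belong to a cluster on chromosome 9, in which RefSeq (GRCm38.p6) lists 10 metalloproteinase genes with 0 other protein-coding genes starting between them. In order they are Mmp13, Mmp12, Mmp1b, Mmp3, Mmp1a, Mmp10, Mmp8, Mmp27, Mmp20 and Mmp7. Of the 9 measured (Mmp27 was not analysed here), Mmp13 and Mmp3 alone were clearly above background. The other 7 had group means from 2.83 to 5.36 and differences from -0.33 to 0.02, 6 of them with both means under 5, and 0 were called with all arrays. A fall of a gene that is already at background would not be seen, so the arrays do not show whether the fall of Mmp3 and Mmp13 extended to their neighbours. The AP-1 letters were in 8 of the 10 promoter windows of the cluster, and in both genes that fell as well as in neighbours near background.

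**Figure D3:**
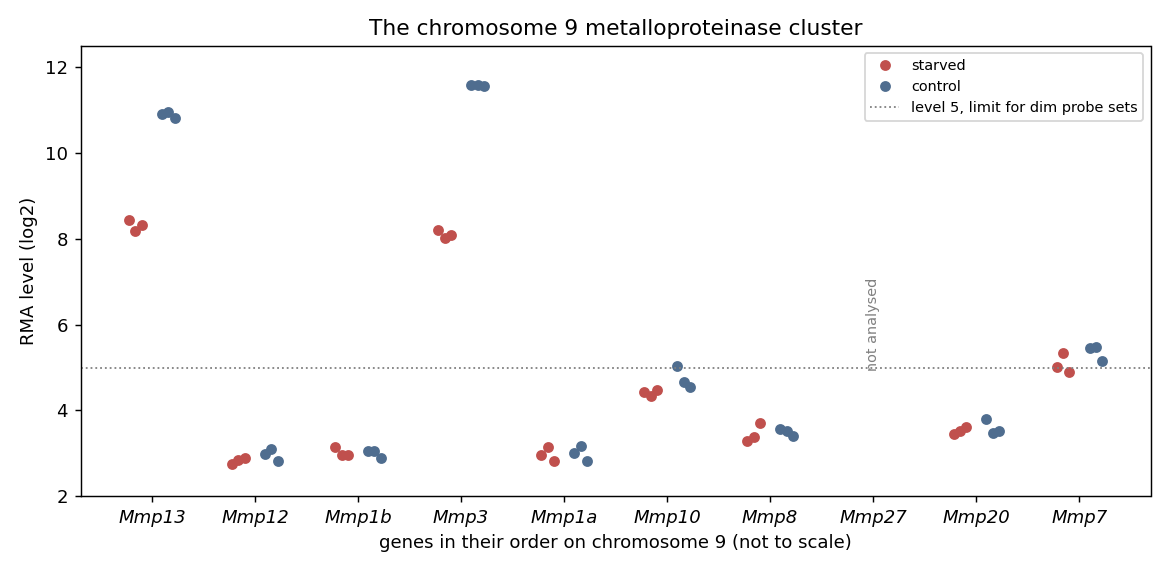
RMA level (log2) of the chromosome 9 metalloproteinase genes in their order along the chromosome, with 3 starved arrays on the left and 3 control arrays on the right of each gene; spacing is not to scale, and the dotted line is the level of 5. Mmp13 and Mmp3 are the only genes whose arrays all lie above 8, and the other measured genes lie close to or under the dotted line in both groups.

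Other genes of pericellular proteolysis were taken from 7 lists with 100 of 116 genes measured, each gene by its brightest probe set. Of all 12393 genes, 40.8% were called, 20.1% lower and 20.8% higher, with a median difference of -0.01; p-values are limma's, adjusted over all probe sets. Of 13 further metalloproteinase and inhibitor genes, 2 fell and 1 rose, with a median of -0.04. Reck, a membrane-anchored inhibitor of metalloproteinases, fell to 7.94 ± 0.08 (SD) in starved cells, against 8.76 ± 0.12 in control cells (difference -0.82 ± 0.08, adjusted p = 0.00012). Mmp19 fell by 0.62 (adjusted p = 0.000593), and the membrane-type gene Mmp16 rose by 0.22 (adjusted p = 0.0129). Mmp24, another membrane-type gene, did not pass, with 5.61 in starved and 5.52 in control cells (adjusted p = 0.572). Timp4, a further TIMP gene, was at 5.03 in starved and 4.83 in control cells and did not pass (adjusted p = 0.283). Its other probe set was called lower, and Timp4 was named after its values were seen.

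Plasmin is a serine protease that activates several metalloproteinase precursors. Of 7 genes of its activation system 2 fell and 0 rose, with a median of -0.13. Plat, the tissue-type plasminogen activator gene, fell by 0.69 (adjusted p = 0.000182), and the plasminogen receptor gene Plgrkt fell by 0.30 (adjusted p = 0.00552). Plaur, the receptor of the urokinase-type activator, differed by -0.13 without passing (adjusted p = 0.112).

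Among 15 convertases, cell surface partners and clearance receptors, 5 fell and 3 rose, with a median of -0.12. Those lower were Thbs2, which helps to clear Mmp2 by endocytosis (-0.65, adjusted p = 7.91e-05), the heparan sulphate proteoglycan gene Sdc4 (-0.52, adjusted p = 0.000519), Mrc2, Bsg and Pcsk7. Those higher were the caveolar coat gene Cav1 (0.87, adjusted p = 1.76e-05), Thbs1 and Cd44, the surface receptor that can dock metalloproteinases. The endocytic receptor gene Lrp1 was at 10.91 ± 0.26 (SD) in starved and 11.33 ± 0.19 in control cells and did not pass (adjusted p = 0.0521), but it was called in 4 of the alternative settings. Mrc2, Bsg, Pcsk7, Thbs1 and Cd44 were named after their values were seen.

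ADAM and ADAMTS genes encode related zinc proteases, of which ADAMs shed proteins from the cell surface. Of 18 measured 8 fell and 1 rose, with a median of -0.22. Adam19 fell by 1.12 (adjusted p = 2.97e-05) and Adam10 by 0.97 in its brightest of 3 probe sets, the other 2 being called lower too (adjusted p = 7.03e-05). Adamts15 fell by 0.96 (adjusted p = 0.000628), to a mean under 5 in starved cells. The gene that rose was the aggrecanase gene Adamts5 (0.63), named after its value was seen. Adam15 differed by -0.16 without passing (adjusted p = 0.285), while another of its probe sets was called higher.

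Factors known to bind metalloproteinase promoters moved both ways, with 5 of 14 lower and 4 higher and a median of -0.01. Etv5, an ETS factor of the PEA3 group, fell by 1.11 (adjusted p = 0.000127), from 5.40 in control cells to 4.29, under 5, in starved cells. The AP-1 gene Fosl1 fell by 0.96 (adjusted p = 0.000403). Another AP-1 gene, Fosl2, rose by 0.96 (adjusted p = 0.00014). Fos (-0.64), Jun (-0.47) and Cebpb (-0.60) were also lower, and Junb (0.51), Rela (0.41) and Ets1 (0.26) higher, all named after their values were seen. Jund was at 10.39 in starved and 10.34 in control cells and did not pass (adjusted p = 0.663).

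Among 19 cytokines, growth factors, receptors and an antagonist of the signals that regulate metalloproteinases, 9 fell and 3 rose, with a median of -0.20. The list is not one of inducers alone: Il1rn (-0.45, called lower) encodes the interleukin 1 receptor antagonist, which blocks such induction, and Tgfb1 (0.65, called higher) can induce some metalloproteinases and repress others. Both were named after their values were seen. The growth factor receptor genes Pdgfrb (-0.81, adjusted p = 8.81e-05) and Fgfr1 (-0.74, adjusted p = 8.07e-05) fell, and the cytokine gene Il6 rose (0.76, adjusted p = 0.000479). Tnfrsf1a, a receptor of tumour necrosis factor, differed by -0.07 without passing (adjusted p = 0.359). Of 14 matrix substrates 6 rose and 3 fell, with a median of 0.14. The tenascin gene Tnc rose by 1.41 (adjusted p = 4.8e-05), the basement membrane collagen gene Col4a2 by 0.72 (adjusted p = 3.4e-05) and Col1a1 by 0.57 (adjusted p = 0.000175). The 3 that fell were Vcan (-0.43), Nid1 (-0.22) and Dcn (-0.19), named after their values were seen. Col1a2 differed by 0.14 without passing in its brightest probe set (adjusted p = 0.0609), and its other probe set was called higher.

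**Figure D4:**
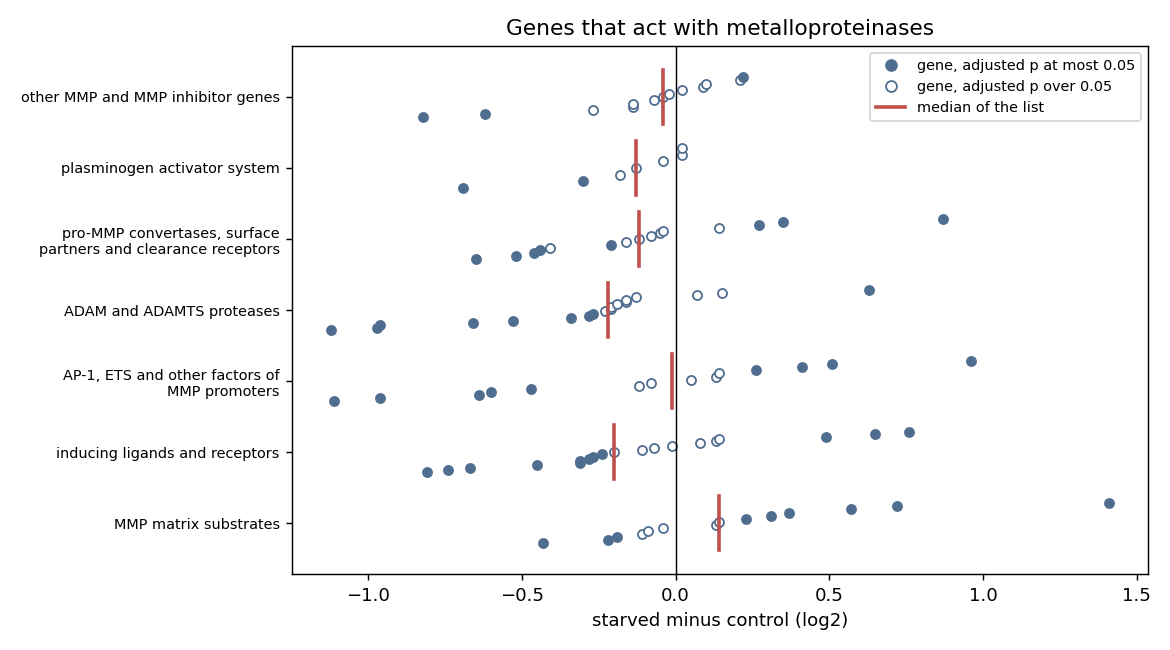
Difference between starved and control cells (log2, horizontal axis) of each gene in 7 lists of genes that act with metalloproteinases; filled points had an adjusted p of 0.05 or less in limma and the vertical bar is the median of the list. The medians lie between -0.22 (ADAM and ADAMTS proteases) and 0.14 (matrix substrates). No gene of these lists fell as far as Mmp3 or Mmp13, which were picked for being among the largest falls.

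The profiles nearest to that of Mmp3 over the 6 arrays, by Euclidean distance after subtracting each gene's mean, were those of Msmo1, Cyp2f2, Tnfrsf21, Sqle and Idi1. Msmo1, an enzyme gene of sterol synthesis, was the nearest at a distance of 0.183, and Idi1, of the same pathway, was at 0.753. This distance mostly measures the size of the fall, -3.61 for Msmo1 and -2.88 for Idi1. Mmp13 was at a distance of 1.1, with 6 genes nearer.

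Defining markers were checked against the fibroblast named in the protocols. Beside the counts below, 20.1% of all genes were called lower and 20.8% higher. Of 12 fibroblast markers 11 lay above 5 in at least 1 group, with Vim at 14.06 in starved and 13.80 in control cells, and Thy1 lay under 5 in both. The list had 5 markers lower, among them Fap (-2.26) and Lum (-2.05), and 3 higher, and its mean level was 11.03 to 11.09 in starved and 11.41 to 11.44 in control arrays. Smooth muscle markers were called higher in 4 of 6, with a mean level of 8.35 to 8.47 in starved and 7.73 to 7.79 in control arrays. The 4 were Tagln (12.33 in starved and 10.44 in control cells, difference 1.89), Cnn1 (0.82), Acta2 (0.64) and Smtn (0.56). Des was not called, and neither was Myh11, the defining myosin of smooth muscle, which lay under 5 in both groups. All 6 endothelial and 6 of 8 epithelial markers lay under 5 in both groups, and 1 in each list was called higher, at levels under 5 (Pecam1 and Cdh1). Of 7 chondrocyte and osteoblast markers, which matter because those cells make Mmp13, 1 rose and 1 fell. Col10a1, the collagen of hypertrophic chondrocytes, was higher at 6.73 in starved and 5.29 in control cells (difference 1.44, adjusted p = 1.4e-05). Sox9, a transcription factor of chondrocytes, was lower at 7.66 in starved and 8.38 in control cells (difference -0.72, adjusted p = 3.57e-05). In this list 3 markers had both means under 5, among them Acan and Col2a1. The part of these marker changes in the differences of the metalloproteinases was not tested.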

How the data were processed

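The samples were 3 starved and 3 control arrays, hybridised with biotin-labelled cRNA and grouped by their titles. Deposited values are log2 signals of each probe set. The submitters' processing notes name RMA and affy, without a version. RMA makes the arrays' distributions alike, so a change common to nearly all transcripts is removed. Array medians were 6.74 to 6.78. Values carry no detection calls or read depth, and a level of 5 served as the limit for dim probe sets.

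Of 22690 probe sets, 64 Affymetrix controls were set aside. The platform annotation named 1 gene for 20380, and 0 symbols of listed genes changed when checked by Entrez identifier. limma 3.58.1 in R 4.3.3 (lmFit, eBayes, two-sided) was fitted to all 22626 probe sets and adjusted by Benjamini-Hochberg over them; it was tested on simulated data. The brightest probe set stood for a gene. The members, lists and tests were chosen with earlier results of these data known. Named genes were all members, up to 3 called genes per list with the largest difference and no overlap between groups, the brightest gene not called, and the 5 profiles nearest to Mmp3. Sequences came from RefSeq (GRCm38.p6). The set of promoter sequences used here held 8 of the 10 members and had no entry for Mmp2 and Mmp9. Alternatives were a filter on dim probe sets, other scalings, moderation, probe set choice, threshold, a replicate block and leaving out each array. Of 116 pathway genes 100 were measured. Listed genes without a probe set of their own were not analysed here. Figures were drawn with matplotlib 3.10.9.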

Additional observations from a re-analysis of the deposited data

How the results depend on the processing

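None of the called differences of members and named genes changed direction in the 14 alternatives. The calls of Mmp2, Mmp3, Mmp13, Mmp14 and Timp1 held wherever their probe sets were tested, as did the 3 called probe sets of Timp3. The member count was 11 in the report and 9 to 14 over the alternatives: 9 of 19 when probe sets able to match several transcripts were left out, and 14 with an intensity trend and robust moderation, where the brightest probe sets of Timp2 and Timp3, and Mmp10, were called as well. The number of all probe sets called was 8933, and it was 5716 of 15605 when those probe sets were left out (36.6% against 39.5%), because fewer were tested. Leaving out 1 array gave 7691 to 8394 calls, and 10 or 11 among the members. With the replicate number as a block 8168 probe sets were called, 10 of them members, Mmp11 losing its call. Same-numbered arrays did not deviate together (correlations of -0.0944, 0.0148 and -0.00833), so they were not treated as pairs. Mmp16 lost its call at a threshold of 0.01, and Mmp24 gained one without starved replicate 1 (0.23). Lrp1 gained a call in 4 alternatives and Col1a2 in 3. Counts for the 7 lists stayed within 1.5 times in every alternative. For Mmp9, Mmp10 and their dim neighbours the signal over background limits what can be seen. Other probes of the same gene differ in size of change (Timp3), so folds on this scale are approximate.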
